A study of Homo sapiens with 8 samples.

Results

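The kinesin family in these data held 43 genes, out of 27946 gene symbols and 19475 protein-coding symbols. The members were chosen by name, as protein-coding genes whose symbol is KIF or KIFC followed by a number, and for each symbol the transcript with the highest mean level was kept from 101 transcripts in all. By their known work, 14 were grouped as mitotic kinesins, 15 as transport kinesins and 13 as other kinesins, and the remaining symbol, KIF1BP, codes for a protein that binds kinesins and is not itself a motor. Of these 43 genes, 32 had an FPKM (read count scaled to transcript length and to library size) of at least 0.5 in at least 2 libraries and were tested.

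RNA was sequenced from EA.hy926, an immortal hybrid of umbilical vein endothelial cells and a lung carcinoma line. The deletions ΔE2 and ΔSE12313-b each remove, by Cas9 ribonucleoprotein with a pair of guide RNAs, a stretch of the super-enhancer SE12313 on chromosome 16. E2 is an enhancer, and SE12313-b is a neighbouring stretch that the study deleted as its inactive comparison. There were 2 control libraries, labelled only as control EA.hy926, 3 ΔE2 libraries and 3 ΔSE12313-b libraries, each of the 6 from a separate clonal line. A clonal line descends from 1 cell, so the replicates of a deletion are clones and carry whatever else set that cell apart. The study describes the control cells of its proliferation assay as guide-transfected cells grown beside the clones, while the origin of the sequenced control RNA is not given in the sources used here. Nothing states that both controls were separate cultures, and p-values then measure the spread between these libraries, which for the controls may be technical.

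Kinesins are motor proteins that burn ATP to move along microtubules or to take microtubule ends apart. Mitotic kinesins build and shorten the spindle, move chromosomes and close the midzone during cytokinesis, and dividing cells make most of them only around mitosis. Transport kinesins carry vesicles, mitochondria and other cargo through the cytoplasm of cells whether or not these divide.

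Depth ran from 12067557 to 19101153 reads per library, and from 7802376 to 13374180 when only reads on genes are counted. Both controls differed from each other by little more than sampling noise (chi-square of 1.19 per degree of freedom), while clones of one deletion differed by 3.98 to 22.8. Endothelial markers summed to 474 to 476 FPKM in the controls, 527 to 760 in ΔE2 and 518 to 727 in ΔSE12313-b, with 1 of 12 (CLDN5) at 0 throughout. The members differed in direction. PECAM1 had means of 5.98 FPKM in control, 13.9 in ΔE2 and 26.0 in ΔSE12313-b, and VWF of 1.92, 0.537 and 0.515. KDR reached at most 0.292 FPKM. Of the 6 epithelial markers, which a carcinoma hybrid can share, the sum was 232 to 239 FPKM in the controls, 613 to 752 in ΔE2 and 541 to 669 in ΔSE12313-b. Nearly all of that sum was KRT8 (means of 86.7, 272 and 273 FPKM) and KRT18 (148, 416 and 329). EPCAM, KRT19 and CLDN4 reached at most 0.554 FPKM. CDH1 was at 0 in every library. The leukocyte markers PTPRC, CD14 and CD3E summed to at most 0.048 FPKM and the fibroblast markers COL1A1, PDGFRA and DCN to at most 0.163. Levels of the median gene lay 0.14 higher on the log2 scale in ΔE2 than in control and 0.27 higher in ΔSE12313-b. The changes and calls below are not corrected for that shift, except where centring or another scaling is named.

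Promoters of a few members are given first, because the mitotic members moved together and their promoters share short elements. The elements searched on both strands were the CHR, spelled TTTGAA or with another centre TTCGAA, the CCAAT box, which is its own spelling, and E2F sites, spelled TTTGGCGC, TTTCCCGC, TTTCGCGC or TTTGCCGC. As background, CHR and CCAAT elements are known from promoters of genes that are used in G2 phase and mitosis, where the DREAM complex and the factor NF-Y bind them. Promoters came from RefSeq (GRCh38.p14) as 300 bases, from 250 before to 50 after the start, and 35 of the 43 members had an entry. The stretches below are the 90 bases up to the start, 5′ to 3′ on the strand of the gene, with capitals marking a match. A CCAAT box of the other strand appears as ATTGG, the former spelling of the CHR as TTCAAA and the first of the E2F sites as GCGCCAAA.
KIF11 (chr10:92593040-92593129, plus strand): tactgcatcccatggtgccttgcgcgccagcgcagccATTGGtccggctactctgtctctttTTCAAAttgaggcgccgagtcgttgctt
KIF4A (chrX:70290014-70290103, plus strand): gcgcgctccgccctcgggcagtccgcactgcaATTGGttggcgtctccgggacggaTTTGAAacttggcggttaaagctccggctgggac
KIF22 (chr16:29790661-29790750, plus strand): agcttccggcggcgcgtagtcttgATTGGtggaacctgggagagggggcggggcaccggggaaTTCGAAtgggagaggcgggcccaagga
KIF23 (chr15:69414259-69414348, plus strand): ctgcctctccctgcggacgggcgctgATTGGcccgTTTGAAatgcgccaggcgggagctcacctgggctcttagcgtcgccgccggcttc
KIF18A (chr11:28108157-28108246, minus strand): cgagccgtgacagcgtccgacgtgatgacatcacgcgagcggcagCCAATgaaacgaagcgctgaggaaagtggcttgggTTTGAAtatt
KIF15 (chr3:44761704-44761793, plus strand): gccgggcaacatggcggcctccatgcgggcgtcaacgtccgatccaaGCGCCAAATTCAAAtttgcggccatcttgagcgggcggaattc
KIF2C (chr1:44739747-44739836, plus strand): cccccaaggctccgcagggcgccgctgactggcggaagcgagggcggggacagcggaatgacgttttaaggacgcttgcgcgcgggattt
KIF2A (chr5:62306116-62306205, plus strand): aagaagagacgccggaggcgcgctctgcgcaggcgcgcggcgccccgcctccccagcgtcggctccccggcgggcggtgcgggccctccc
KIF3A (chr5:132737547-132737636, minus strand): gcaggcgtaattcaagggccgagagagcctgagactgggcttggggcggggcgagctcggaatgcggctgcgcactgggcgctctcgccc

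In KIF11, KIF4A, KIF22, KIF23 and KIF18A a CCAAT box lies upstream of a CHR, with 9 to 39 bases from the first base of the one to the first base of the other. KIF15 has a CHR that directly follows an E2F site and no CCAAT box. KIF2C, a mitotic kinesin, shows no match in the 300 bases, nor do KIF2A and KIF3A, which are shown as members outside the mitotic group. Over the whole windows, 11 of 14 mitotic promoters (78.6%) held a CHR, against 1 of 11 transport promoters (9.09%, KIF5B), 1 of 9 of the other kinesins (11.1%, KIF24) and 13.3% of the 14834 promoters of protein-coding symbols in the table. A CCAAT box stood in 11 mitotic promoters (78.6%), 3 transport promoters (27.3%) and 3 of the others (33.3%), against 36.3% of the protein-coding ones. Both elements together were found in 10 mitotic promoters (71.4%) and in 5.51% of the protein-coding promoters, and in all 10 the CHR was the nearer to the start, with a median of 29.5 bases (9 to 122) between the first bases. E2F sites were in 1 mitotic promoter (7.14%, KIF15) and in 4.38% of the protein-coding promoters. Such a match describes the letters of a window and shows no binding. Whether a match goes with the size of a change, here or in the genes below, was not tested.

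In the control cells the kinesins that led by level were transport motors, and in the clones mitotic motors stood beside them. The 42 motor genes summed to 161 and 158 FPKM in the controls, of which the mitotic kinesins made up 13.0% and 12.8%. In ΔE2 the sums were 410, 373 and 438 FPKM with mitotic shares of 63.6%, 60.0% and 65.0%, and in ΔSE12313-b they were 488, 465 and 443 FPKM with shares of 60.2%, 58.9% and 57.5%. By group, the mitotic sum was 20.6 ± 0.462 FPKM (SD, n = 2) in control, 256 ± 30.6 (n = 3) in ΔE2 and 274 ± 19.4 (n = 3) in ΔSE12313-b. The transport sum moved far less, with 118 ± 1.65 FPKM in control, 126 ± 2.4 in the ΔE2 clones and 162 ± 1.33 in those of ΔSE12313-b. KIF5B, KIFC2 and KIF3B were the members with the highest mean FPKM in control, KIF20A, KIF23 and KIF5B those in ΔE2, and KIF5B, KIF20A and KIF22 those in ΔSE12313-b. KIF20A and KIF23 in ΔE2 (40.2 ± 4.82 and 38.3 ± 5.4 FPKM) did not differ beyond their spread, nor did KIF5B and KIFC2 in control (23.2 ± 0.0417 and 23.0 ± 1.29 FPKM).

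**Figure D1:**
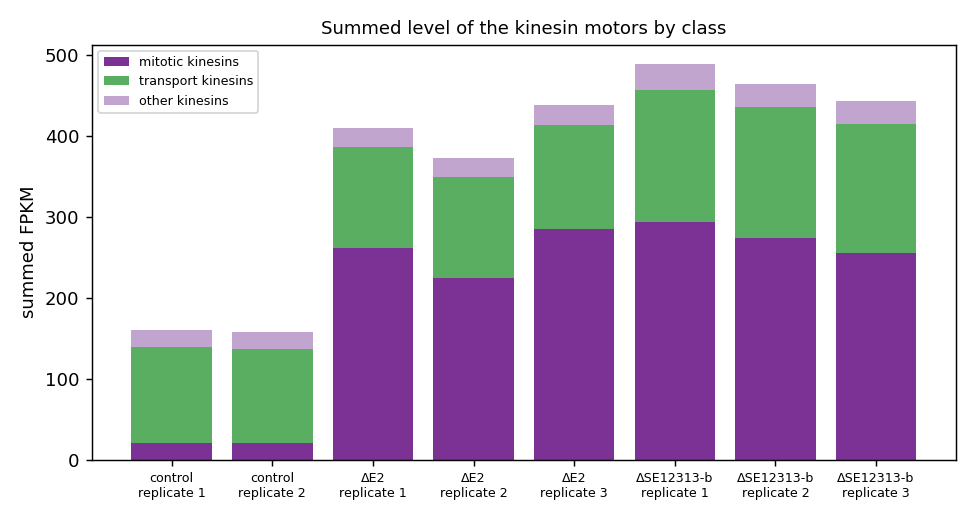
Summed FPKM (vertical axis) of the mitotic, transport and other kinesins as stacked bars, 1 bar for each of the 8 libraries. The mitotic share is about 13.0% in both controls and between 57.5% and 65.0% in the 6 clones, while the transport sum lies between 116 and 163 FPKM throughout.

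All mitotic kinesins that could be tested rose in both deletions. Against control, 13 of 13 passed the test in ΔE2 and 13 of 13 in ΔSE12313-b (limma, Benjamini-Hochberg adjusted p under 0.05 and at least 2-fold), and the 14th, KIF2B, had 0 reads in every library. Among all 13790 genes tested, 11.2% were called up and 8.36% down in ΔE2, and 14.7% were called up and 7.83% down in ΔSE12313-b. The median log2 fold change of the mitotic group was 4.06 in ΔE2 (range 1.88 to 5.24) and 4.05 in ΔSE12313-b (2.32 to 5.23). Adjusted p lay between 1.3e-07 and 0.000231 in ΔE2 and between 1.27e-07 and 0.000143 in ΔSE12313-b. KIF14, KIF15, KIF18B and KIF4B passed the FPKM minimum through the clones alone and KIFC1 reached it in only 1 control, so the minimum favoured a rise for these 5, while the other 8 reached it in both controls. Both deletions were set against the same 2 controls, and their columns of values are therefore not independent of each other. In a culture, more dividing cells and more RNA of a gene per cell cannot be told apart in such data. In separate assays of the clones, the study measured slower proliferation than in its control cells for both deletions. It also found a smaller share of their cells in S phase and a larger share in G0/G1. For the ΔE2 clones the study describes a small decrease in G2/M. The proliferation antigen MKI67 stood at 0.574 and 0.429 FPKM in the controls, 26.5, 16.4 and 24.5 in ΔE2 and 28.8, 32.9 and 24.4 in ΔSE12313-b, and topoisomerase TOP2A at 2.99 and 3.26, at 78.4, 67.9 and 85.6, and at 73.0, 73.4 and 64.5. Their part in the kinesin result was not tested.

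**Figure D2:**
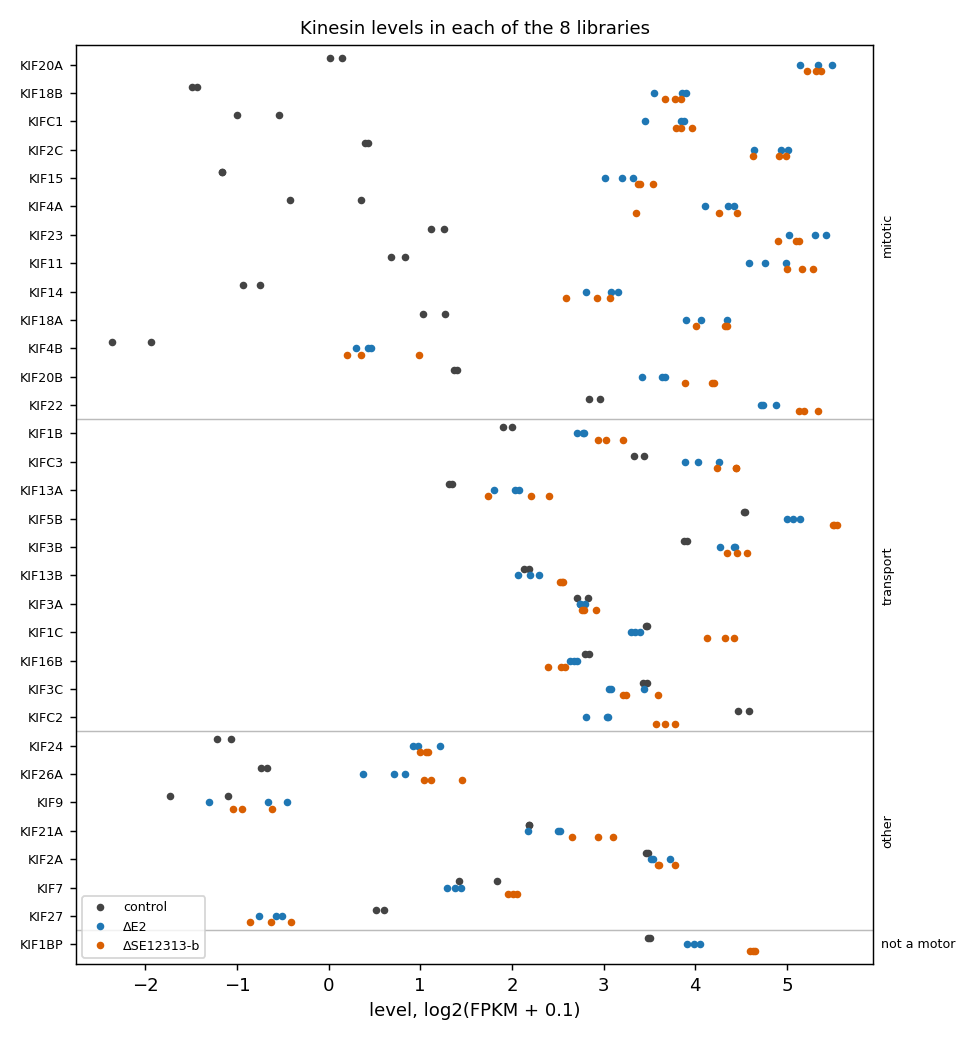
Level of each of the 32 tested members as log2(FPKM + 0.1) on the horizontal axis, with 1 point for each library, in grey for control, blue for ΔE2 and orange for ΔSE12313-b. For the 13 mitotic members the clones lie far to the right of both controls, while most transport members differ by much less. Transport members such as KIF5B, KIFC2 and KIF16B also have every clone outside the range of the controls. The share of all genes without overlap was not counted.

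The motors of spindle assembly were among these genes, and values are given here and below in the order of the replicate numbers. KIF11 (Eg5), the plus-end motor that pushes spindle poles apart, was at 1.68 and 1.51 FPKM in control, at 27.0, 23.8 and 31.8 in ΔE2 and at 38.9, 35.8 and 32.0 in ΔSE12313-b. KIF15, which can share the work of KIF11 in holding a bipolar spindle, was at 0.345 in both controls, at 9.09, 8.01 and 9.91 in ΔE2 and at 11.6, 10.3 and 10.5 in ΔSE12313-b. KIFC1 (HSET), a minus-end motor that gathers spindle poles, was at 0.586 and 0.401, at 14.3, 10.8 and 14.7, and at 13.7, 15.5 and 14.3 FPKM. For all 3 the clones lay far above the controls without overlap. The log2 fold changes in ΔE2 and ΔSE12313-b were 4.02 and 4.39 for KIF11 (SE 0.136), 4.35 and 4.61 for KIF15 (SE 0.117) and 4.50 and 4.64 for KIFC1 (SE 0.175). Median changes of the genes on 10q, where KIF11 lies, were 0.443 above those of all protein-coding genes in ΔSE12313-b and 0.066 above in ΔE2. KIF11 did not differ between the deletions at the threshold (log2 difference of ΔE2 against ΔSE12313-b −0.375, 95% interval −0.656 to −0.093, adjusted p = 0.0566 by limma), although the 3 ΔE2 clones were below the 3 ΔSE12313-b clones.

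Motors at kinetochores and microtubule ends came next by role. KIF2C (MCAK), which takes microtubule ends apart and so corrects wrong attachments, was at 1.21 and 1.25 FPKM in control, at 30.5, 24.8 and 32.2 in ΔE2 and at 30.1, 31.6 and 24.6 in ΔSE12313-b. KIF18A, which damps the swings of chromosomes at the metaphase plate, was at 2.31 and 1.95, at 16.7, 14.8 and 20.3, and at 19.9, 20.3 and 16.0 FPKM. KIF18B, which shortens astral microtubules, was at 0.255 and 0.269, at 14.4, 11.6 and 14.8, and at 14.3, 13.6 and 12.7 FPKM. KIF18B had the highest ratio of means in the family, 51.9-fold in ΔE2 and 51.7-fold in ΔSE12313-b, and it rested on 13 reads in each control against 798 to 1099 reads in the clones. In log2 terms KIF18B rose by 5.23 in both deletions (SE 0.124), KIF2C by 4.45 in ΔE2 and 4.43 in ΔSE12313-b (SE 0.141), and KIF18A by 2.95 and 3.08 (SE 0.163). None of the 3 elements searched was in the promoter window of KIF2C.

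KIF2A, the close relative of KIF2C that serves interphase microtubules and cilia as well as the spindle and was counted with the other kinesins, did not follow KIF2C. It was at 11.1 and 10.9 FPKM in control, at 11.3, 13.2 and 11.5 in ΔE2 and at 13.6, 12.0 and 12.0 in ΔSE12313-b. Its log2 changes were 0.12 (95% interval −0.107 to 0.345, adjusted p = 0.335) and 0.18 (−0.042 to 0.41, adjusted p = 0.139) by limma. KIF2A was thus above KIF2C per length in both controls (mean 11.0 against 1.23 FPKM) and below it in each clone.

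The chromokinesins ride on chromosome arms. KIF22 (Kid) was at 7.08 and 7.68 FPKM in control, at 26.3, 26.6 and 29.3 in ΔE2 and at 40.4, 34.9 and 36.4 in ΔSE12313-b, the highest control level of any mitotic member and the smallest rise, of 1.88 in ΔE2 and 2.32 in ΔSE12313-b on the log2 scale (SE 0.091). KIF4A, which condenses chromosomes and sets the length of the midzone, was at 1.18 and 0.649 FPKM, at 20.4, 17.2 and 21.4, and at 21.8, 10.1 and 19.0. Every clone stood above both controls for the 2 genes, and 1 clone of KIF4A stood apart. The ΔSE12313-b replicate 2 held 669 reads of KIF4A where the other clones of that deletion held 1566 and 1349, and the median of the 228 genes on Xq, relative to all genes, was −0.223 in that library against 0.082 and 0.146 in the others. Its log2 change in ΔSE12313-b was 4.05 (SE 0.34), and 4.38 without that clone. KIF22 lies on 16p, where the median change of 289 genes relative to all genes was −0.419 in ΔE2.

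KIF4B is an intronless copy of KIF4A on chromosome 5 with nearly the same sequence, so that single reads may be assigned to either, and its values are uncertain. Its call in ΔE2 was lost with a pseudocount of 1 (0.98). It was at 0.162 and 0.095 FPKM in control, at 1.25, 1.14 and 1.28 in ΔE2 and at 1.18, 1.05 and 1.88 in ΔSE12313-b, with 9 and 5 reads in the controls. Its level was 13.7% and 14.6% of that of KIF4A in the controls, 5.95% to 6.61% in ΔE2 and 5.41%, 10.4% and 9.92% in ΔSE12313-b. The share was highest in the controls, where KIF4A itself had 67 and 35 reads.

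The motors of the midzone and cytokinesis ranged widely in level, and KIF20A was the highest of the mitotic group in both deletions. KIF20A (MKLP2), which brings the chromosomal passenger complex to the midzone, was at 1.00 and 0.913 FPKM in control, at 40.5, 35.2 and 44.8 in ΔE2 and at 41.3, 39.7 and 37.1 in ΔSE12313-b. KIF23 (MKLP1), a part of centralspindlin, was at 2.07 and 2.30, at 39.5, 32.3 and 42.9, and at 34.9, 34.1 and 29.9 FPKM. KIF14, which binds citron kinase at the midbody, was at 0.496 and 0.424, at 8.33, 6.89 and 8.82, and at 7.5, 8.28 and 5.90 FPKM. KIF20A thus went from 44 and 38 reads in the controls to between 2031 and 2668 in the clones, a ratio of means of 41.9 in ΔE2 and 41.1 in ΔSE12313-b. The log2 changes in ΔE2 and ΔSE12313-b were 5.24 and 5.22 for KIF20A (SE 0.112), 4.06 and 3.85 for KIF23 (SE 0.131) and 3.85 and 3.70 for KIF14 (SE 0.172). KIF20B (MPP1), needed late in cytokinesis, was at 2.54 and 2.49, at 12.7, 10.6 and 12.4, and at 18.1, 18.4 and 14.7 FPKM, and rose by 2.19 and 2.71 on the log2 scale (SE 0.125). Its relative KIF20A had the larger rise. The promoter window of KIF20A held CCAAT boxes and no CHR. KIF20A shares 68 bases with CDC23 on the opposite strand, and whether the counting used strand is not given in the sources used here.

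In ΔE2 the mitotic genes shared most of their order of clones, and in ΔSE12313-b they did not. In ΔE2, replicate 3 was highest for 12 of the 13 genes and replicate 2 lowest for 12 of them, and replicate 2 also had the lowest MKI67 and TOP2A. In ΔSE12313-b, replicate 1 was highest for 7 genes and replicate 2 for 5, replicate 3 was lowest for 8 and replicate 2 for 4, and replicate 2 had the highest MKI67 while replicate 3 had the lowest MKI67 and TOP2A of that deletion. Since the genes were measured in the same clones, these counts describe 6 libraries and not 13 separate observations.

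**Figure D3:**
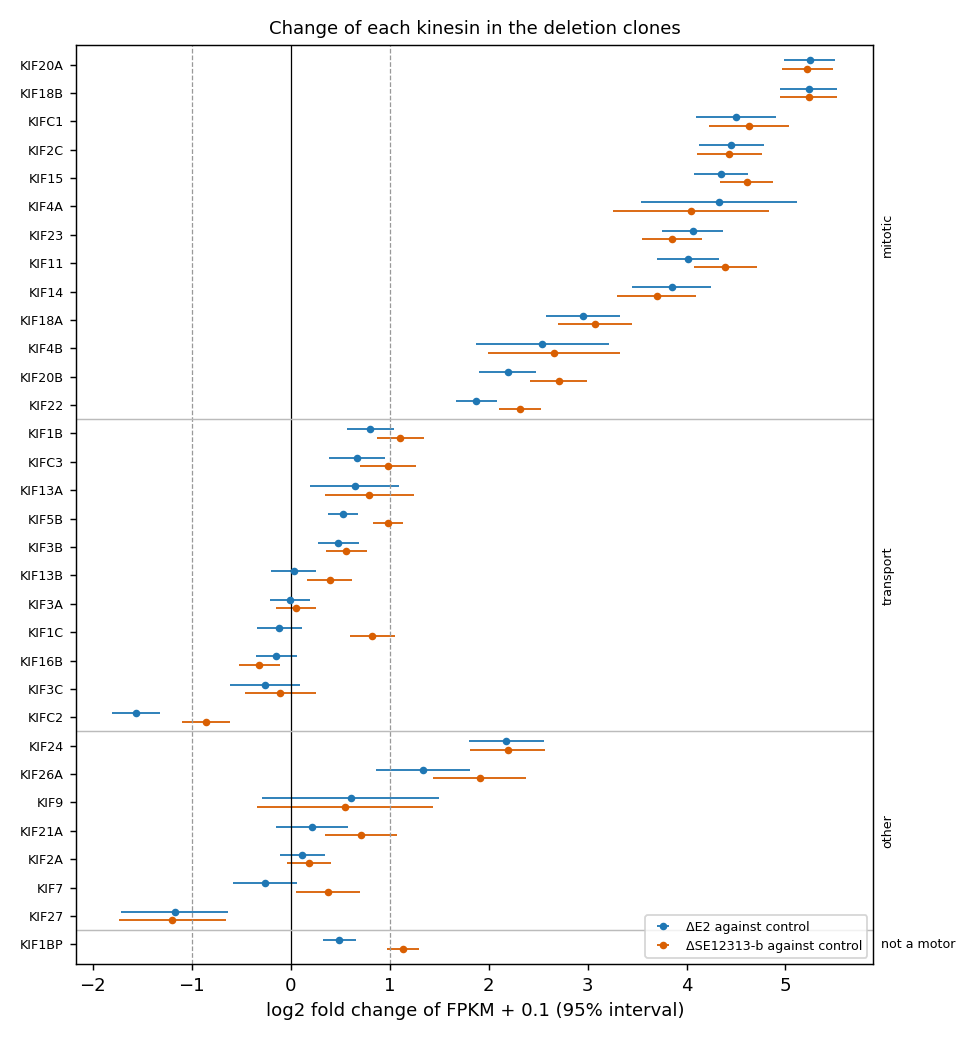
Log2 fold change of FPKM + 0.1 of each tested member against control (horizontal axis), with bars for the 95% interval of limma, in blue for ΔE2 and orange for ΔSE12313-b, and dashed lines at 2-fold. All mitotic members lie right of the upper line, and of the transport members only KIFC2 in ΔE2 and KIF1B in ΔSE12313-b lie past a line.

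The transport kinesins had no such common rise. Of 11 tested, 0 rose and 1 fell in ΔE2, and 1 rose and 0 fell in ΔSE12313-b. The shares of all genes were 11.2% up and 8.36% down in ΔE2, and 14.7% up and 7.83% down in ΔSE12313-b. Median log2 changes of the transport kinesins were 0.03 and 0.56. With each library centred on the median gene these medians were −0.13 and 0.27, so the sign in ΔE2 depends on the scaling. Their adjusted p by limma was under 0.05 for 6 of 11 in ΔE2 and 9 of 11 in ΔSE12313-b, whatever the fold. Among all genes tested that share was 54.1% in ΔE2, so the 6 were no more than the background, and 59.4% in ΔSE12313-b. No transport member had passed the FPKM minimum through the clones alone.

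KIF5B, the heavy chain of conventional kinesin (kinesin-1) outside neurons, had the highest level of the group in every clone. It was at 23.1 and 23.2 FPKM in control, at 33.3, 31.8 and 35.2 in ΔE2 and at 45.4, 46.7 and 45.4 in ΔSE12313-b, and the 3 groups did not overlap. The log2 change was 0.53 in ΔE2 (SE 0.067, adjusted p = 0.000399) and 0.98 in ΔSE12313-b (adjusted p = 1.37e-05), just short of 2-fold. KIF5B lies on 10p, whose median gene, relative to all genes, was at 0.449 in ΔSE12313-b and −0.01 in ΔE2. Its neuronal relatives were scarce, with KIF5A at 0 or 1 read per library and KIF5C under the minimum. KIF5C had 14 and 21 reads in the controls, 65, 47 and 40 in ΔE2 and 17, 14 and 11 in ΔSE12313-b. KIF5C was then fitted with the minimum lowered to an FPKM above 0 in at least 2 libraries. Its log2 change was 0.83 in ΔE2 (adjusted p = 0.0187) and −0.40 in ΔSE12313-b (adjusted p = 0.175), and the deletions differed by 1.23 (adjusted p = 0.00623 by limma).

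The kinesin-3 motors carry vesicles and organelles, and they differed among themselves. KIF1B, a carrier of mitochondria and synaptic vesicle precursors, was at 3.64 and 3.90 FPKM in control, at 6.78, 6.46 and 6.75 in ΔE2 and at 8.08, 9.17 and 7.56 in ΔSE12313-b. Its log2 change was 0.81 in ΔE2 (SE 0.103, adjusted p = 0.000411) and 1.11 in ΔSE12313-b (adjusted p = 6.34e-05), so it passed the 2-fold limit in the latter. That call was lost at 0.82 when each library was centred and at 0.77 with the longest transcript in place of the most abundant, among other settings. KIF1C, a fast vesicle motor of many cell types, was at 11.0 and 10.9, at 10.4, 10.1 and 9.77, and at 19.9, 17.3 and 21.4 FPKM. Here ΔE2 lay slightly below control (−0.12, adjusted p = 0.34) and ΔSE12313-b above (0.82, adjusted p = 0.000224). The median gene of 17p, the arm of KIF1C, differed from all genes by 0.042 in ΔE2 and 0.035 in ΔSE12313-b.

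KIF13A, which carries recycling endosomes, was at 2.38 and 2.44 FPKM, at 4.01, 3.39 and 4.13, and at 4.54, 5.19 and 3.24, with log2 changes of 0.65 (adjusted p = 0.0232) and 0.79 (adjusted p = 0.00864). Its 5 transcripts ranged from −0.25 to 0.65 in ΔE2. Only the shortest (1325 bases) was negative there, with low means of 0.356 FPKM in ΔE2 and 0.425 in control. Every other transcript gave 0.61 to 0.65, at means of 3.78 to 3.84 FPKM in ΔE2. KIF13B was at 4.27 and 4.44, at 4.47, 4.80 and 4.08, and at 5.81, 5.76 and 5.67 FPKM. KIF16B, an endosome motor, was the only one of these below control in every clone, at 7.07 and 6.87, at 6.30, 6.11 and 6.43, and at 5.16, 5.71 and 5.88 FPKM, with log2 changes of −0.15 (adjusted p = 0.2) and −0.32 (adjusted p = 0.0166). KIF1A, the neuronal member, had at most 1 read per library.

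Kinesin-2 forms heterotrimers that serve cilia and organelles, and its subunits did not move as 1 unit. KIF3A, the common subunit, was at 6.46 and 7.0 FPKM in control, at 6.85, 6.59 and 6.62 in ΔE2 and at 6.82, 7.45 and 6.72 in ΔSE12313-b. Its log2 changes of −0.01 (95% interval −0.21 to 0.194) and 0.05 (−0.148 to 0.256) had intervals that reached no further than 0.256 from 0. KIF3B, its usual partner, was at 15.0 and 14.6, at 19.2, 21.5 and 21.3, and at 23.5, 20.2 and 21.9 FPKM, with log2 changes of 0.48 (adjusted p = 0.0027) and 0.56 (adjusted p = 0.00103). KIF3C, the alternative partner, was at 11.0 and 10.7, at 8.36, 10.7 and 8.26, and at 9.35, 9.19 and 12.0 FPKM, and overlapped between all groups. KIF17, the homodimeric member, had 1 to 4 reads per library.

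The minus-end transport motors went in opposite directions. KIFC2, a motor known mainly from neurons, was with KIF5B the most abundant kinesin of the controls and was the only transport member called as lower, in ΔE2. It was at 23.9 and 22.1 FPKM in control, at 8.19, 8.09 and 6.92 in ΔE2 and at 12.6, 13.6 and 11.8 in ΔSE12313-b, in 3 groups that did not overlap. The log2 change was −1.56 in ΔE2 (SE 0.105, adjusted p = 1.56e-05) and −0.85 in ΔSE12313-b (adjusted p = 0.000261), and with each library centred the latter became −1.14 and passed the 2-fold limit. The median gene on 8q, relative to all genes, was at −0.096 and −0.02. KIFC2 overlaps FOXH1 on the opposite strand over 385 bases, and FOXH1 had a mean of only 0.085 FPKM. KIFC3, which acts at cell junctions and the Golgi, was at 10.7 and 10.0, at 16.3, 14.7 and 19.0, and at 21.6, 21.7 and 18.7 FPKM, with log2 changes of 0.67 (adjusted p = 0.00236) and 0.99 (adjusted p = 0.000274). KIFC3 in ΔSE12313-b passed 2-fold without ΔSE12313-b replicate 3 (1.06) or without control replicate 1 (1.04). Its arm, 16q, had a median gene at −0.314 relative to all genes in that deletion.

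Of the 13 other kinesins 7 were tested, and in each deletion 2 rose (KIF24 and KIF26A), 1 fell (KIF27) and 4 were not called. The shares of all genes were 11.2% up and 8.36% down in ΔE2, and 14.7% up and 7.83% down in ΔSE12313-b. KIF24, a centriolar kinesin that holds back cilium formation and is known from cycling cells, was at 0.377 and 0.331 FPKM in control, at 1.86, 1.80 and 2.22 in ΔE2 and at 2.03, 2.0 and 1.90 in ΔSE12313-b. It rose by 2.18 and 2.19 on the log2 scale (adjusted p = 2.8e-05 and 2.12e-05 by limma), and it is the member of this group whose promoter held both a CHR and a CCAAT box. KIF24 passed the FPKM minimum through the clones alone, and it shares 144 bases with UBAP1 on the opposite strand. KIF26A, a divergent kinesin that has lost ATPase activity, was at 0.502 and 0.529, at 1.68, 1.20 and 1.54, and at 2.08, 1.96 and 2.64 FPKM and rose by 1.34 (adjusted p = 0.00102) and 1.91 (adjusted p = 0.000133), and with a pseudocount of 1 its change in ΔE2 was 0.70 and no longer 2-fold. KIF27, a relative of KIF7 linked to motile cilia, was at 1.42 and 1.33, at 0.571, 0.604 and 0.493, and at 0.452, 0.652 and 0.546 FPKM. KIF27 fell by 1.17 (adjusted p = 0.00376) and 1.20 (adjusted p = 0.00293) on the log2 scale, and with a pseudocount of 1 its changes were −0.61 and −0.62 and no longer 2-fold.

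Of the rest of this group, KIF7, a cilium-tip protein of Hedgehog signalling, was at 2.59 and 3.47 FPKM in control, at 2.63, 2.34 and 2.49 in ΔE2 and at 3.92, 3.79 and 4.05 in ΔSE12313-b. KIF21A, which limits microtubule growth at the cell cortex, was at 4.45 and 4.47, at 5.56, 4.42 and 5.68, and at 8.50, 7.56 and 6.18 FPKM. Both had an adjusted p under 0.05 in ΔSE12313-b alone of the deletions against control (0.0482 for KIF7 and 0.0056 for KIF21A, with log2 changes of 0.38 and 0.71). KIF9 had 8 to 34 reads per library, overlaps an antisense RNA over 16091 bases, and its log2 changes of 0.61 (adjusted p = 0.217) and 0.55 (adjusted p = 0.251) had intervals that span 0.

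Under the minimum, KIF21B, the relative of KIF21A, had 38 and 25 reads in the controls, 0, 3 and 1 in ΔE2 and 37, 30 and 20 in ΔSE12313-b. Its level in ΔE2 was at least 13.8-fold lower than in control and at least 10.1-fold lower than in ΔSE12313-b, taking 3 reads in each library as the floor, which covers counting error only. It was then fitted with the minimum lowered to an FPKM above 0 in at least 2 libraries. The log2 change was −1.77 in ΔE2 (adjusted p = 0.000785), −0.32 in ΔSE12313-b (adjusted p = 0.294) and −1.45 for ΔE2 against ΔSE12313-b (adjusted p = 0.00399 by limma). KIF21B was thus at the floor in the ΔE2 clones, with 4 reads in all, and above it in the other 2 groups. KIF6 and KIF25 had 0 reads in every library and KIF12, KIF19 and KIF26B at most 3.

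KIF1BP, which holds several kinesins in an inactive state, was at 11.1 and 11.2 FPKM in control, at 15.8, 14.9 and 16.5 in ΔE2 and at 24.2, 25.0 and 24.7 in ΔSE12313-b. The 3 groups did not overlap. Its log2 change was 0.49 in ΔE2 (SE 0.071, adjusted p = 0.000785) and 1.14 in ΔSE12313-b (adjusted p = 9.05e-06), the latter a called rise. KIF1BP lies on 10q, and relative to the median of its chromosome its change in ΔSE12313-b was 0.34. With each library centred it was 0.85, and the call was lost.

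Set directly against each other, the deletions differed in none of the 32 tested members by 2-fold or more at an adjusted p under 0.05 (limma), against 4.23% of all genes. Unadjusted p was under 0.05 for 14 of the 32. Among all genes that share was not counted, and it is at least the 26.0% with an adjusted p under 0.05. The voom alternative of limma on the recovered reads also called 0. Whatever the fold, 10 of 32 had an adjusted p under 0.05, against 26.0% of all genes, and all 10 were lower in ΔE2 than in ΔSE12313-b, where the median of all genes was −0.11. The mitotic members among them were KIF20B (log2 difference −0.51, adjusted p = 0.0131) and KIF22 (−0.44, adjusted p = 0.00705), and the median gene of their arms, 10q and 16p, was at −0.485 and −0.575 in this comparison. For the transport kinesins KIF1C (−0.94, 95% interval −1.146 to −0.74, adjusted p = 0.000684) and KIFC2 (−0.71, −0.923 to −0.49, adjusted p = 0.00195) the median gene of the arm, 17p and 8q, was at −0.122 and −0.189. KIF5B (−0.46, adjusted p = 0.00192) stood above the median gene of its arm, 10p, at −0.607. The other transport members were KIF13B (−0.36, adjusted p = 0.0194) and KIF1B (−0.30, adjusted p = 0.0451), and the remaining 3 were KIF7 (−0.64, adjusted p = 0.00921), KIF21A (−0.49, adjusted p = 0.0372) and KIF1BP (−0.64, adjusted p = 0.000842). KIF13B, KIF1B, KIF7, KIF21A and KIF1BP each stood below the median gene of their arm. For 11 of the 13 mitotic members the adjusted p was 0.05 or more. KIF18B had the estimate nearest to 0, at 0.001 (95% interval −0.256 to 0.258), and KIF4A had the widest interval of the mitotic members, from −0.426 to 0.983.

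**Figure D4:**
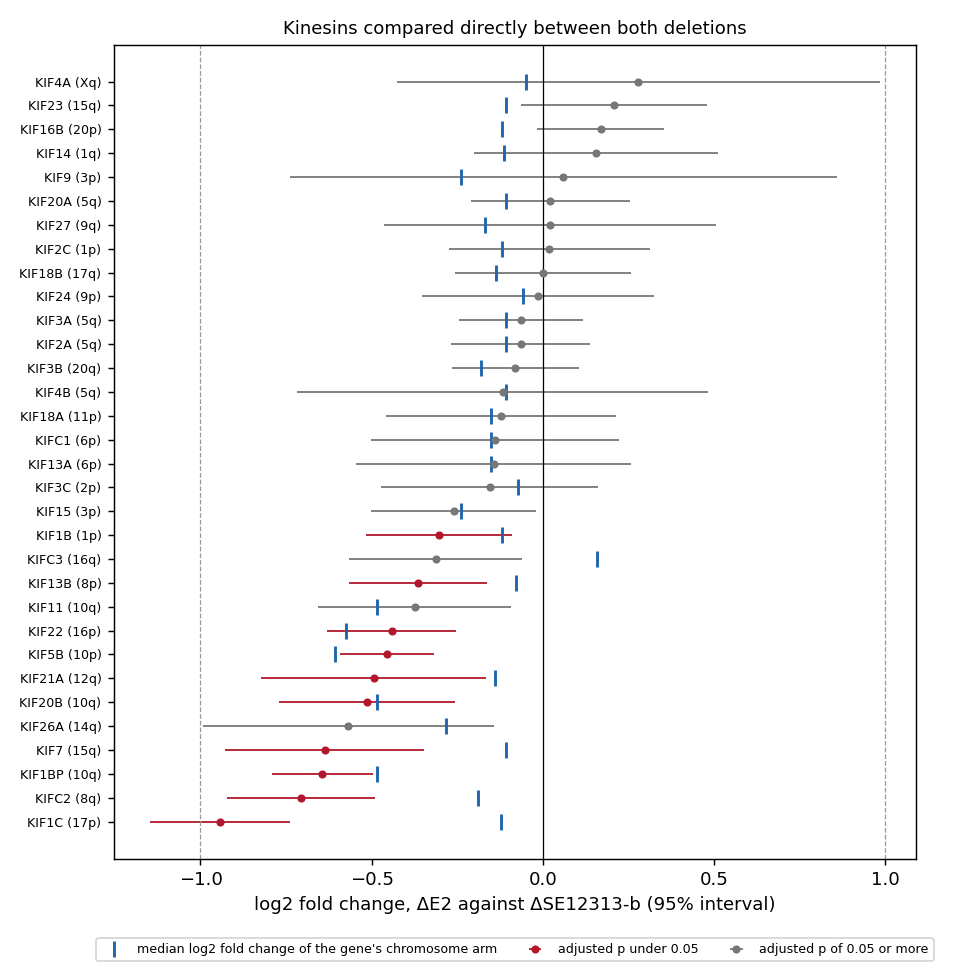
Log2 fold change of ΔE2 against ΔSE12313-b for each of the 32 tested members (horizontal axis) with 95% intervals, in red where the adjusted p was under 0.05, and blue ticks for the median log2 fold change of the gene's chromosome arm. The red points all lie left of 0. KIF1C, KIFC2, KIF7, KIF21A, KIF13B, KIF1B and KIF1BP lie left of the tick of their arm. KIF20B lies close to its tick, and KIF5B and KIF22 lie right of theirs.

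Partners of the kinesins were counted from lists by role. Of 20 partners in mitosis, all tested, 14 rose in ΔE2 and 16 in ΔSE12313-b and 0 fell, with a median log2 change of 3.11 in each. The shares of all genes called up were 11.2% in ΔE2 and 14.7% in ΔSE12313-b. TPX2, which activates Aurora A on the spindle and recruits motors, stood at 6.47 ± 0.154 FPKM in control, 106 ± 11.6 in the ΔE2 clones and 102 ± 9.44 in those of ΔSE12313-b, and PRC1, the bundler to which KIF4A binds, at 2.91 ± 0.767, 51.7 ± 4.81 and 55.7 ± 4.89 FPKM. MAPRE1 (EB1), which tracks growing microtubule ends in all cells, had log2 changes of 0.91 and 1.09 only, and CKAP5, a microtubule polymerase, of 0.83 and 1.02, each past 2-fold in ΔSE12313-b but not in ΔE2. With each library centred, MAPRE1 (0.80) and CKAP5 (0.74) lost that call and 14 partners rose in ΔSE12313-b. Members that did not pass in either deletion were NUMA1, MAPRE3, CLASP1 and CLASP2.

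Adaptors that link transport kinesins to cargo were mostly at like levels in all groups. Of 19 listed 15 were tested, and in ΔE2 0 rose and 1 fell. In ΔSE12313-b 2 rose (KIF1BP and TRAK2) and 1 fell, and the medians were −0.04 and 0.00. The shares of all genes were 11.2% up and 8.36% down in ΔE2, and 14.7% up and 7.83% down in ΔSE12313-b. KIF1BP is on this list as a protein that binds kinesins. It is no cargo adaptor and is the same gene as the family member above. The gene that fell in both was MAPK8IP3 (JIP3, on 16p), an adaptor of kinesin-1 and dynein, with 15.5 ± 0.0792 FPKM in control, 4.19 ± 0.192 in the ΔE2 clones and 4.63 ± 0.617 in those of ΔSE12313-b, a log2 change of −1.86 and −1.73 (adjusted p = 1.29e-05 and 1.53e-05 by limma). KLC1, a light chain of kinesin-1, was at 30.8 ± 0.693, 33.7 ± 0.545 and 43.0 ± 7.66 FPKM, and FEZ2 at 37.7 ± 0.755, 38.8 ± 3.2 and 37.9 ± 2.94.

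The motor that runs the other way, cytoplasmic dynein with dynactin, had 28 of 31 listed genes tested. In ΔE2 1 rose (DCTN3, by 1.12) and in ΔSE12313-b 4 rose (ACTR1A, DCTN3, DYNLL1 and NDE1). None fell in either, and the medians were 0.29 and 0.42. Of all genes tested 11.2% rose in ΔE2 and 14.7% in ΔSE12313-b, so these counts did not exceed the background. With each library centred, 0 rose in ΔE2, and 2 rose and 1 fell in ΔSE12313-b. DYNLL1, a light chain found in many complexes, was the most abundant at 98.1 ± 0.0177 FPKM in control, 184 ± 18.8 in ΔE2 and 201 ± 2.74 in ΔSE12313-b. The capping proteins CAPZA1 and CAPZB of dynactin, which also cap actin filaments, had log2 changes between 0.49 and 0.78. Both medians stood closer to those of all genes (0.14 and 0.27) than to those of the mitotic kinesins.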

How the data were processed

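RNA of 8 EA.hy926 libraries (2 control, 3 ΔE2, 3 ΔSE12313-b) was measured after depletion of ribosomal RNA, with single-end reads from a directional kit. Per the submitters' processing notes and the methods, the authors trimmed reads with Trim Galore 0.4.4, aligned them with STAR 2.5.4b to GRCh37 and used featureCounts for gene counts of their own tests. The table deposited by the authors holds FPKM for each of 65572 RefSeq transcripts, and the tool, RefSeq release and strand setting behind it are not given in the sources used here. Because these are FPKM, a count test was not used as the main test, although the methods name one. FPKM times length gave whole reads for at least 99.97% of the values checked in each library (tolerance 0.1 read), and these reads served for depth, for floors of 3 reads and for limma's voom as an alternative.

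Per symbol, the most abundant transcript by mean FPKM was used. Genes reaching 0.5 FPKM in 2 or more libraries (13790) were fitted on log2(FPKM + 0.1) with limma 3.58.1 (R 4.3.3, 3 groups, empirical Bayes with trend, two-sided), with Benjamini-Hochberg adjustment over all of them. A call needed an adjusted p under 0.05 and a 2-fold change, and a fold change on this scale understates that of low genes. The steps were tested on simulated data. Medians of chromosome arms used protein-coding genes of mean FPKM 1 or more. Every member is named or counted, and partner genes are counted, naming up to 4 per list with the highest mean FPKM over all libraries. 1 of these is not reported here. Further partners were named after their values were seen, where a count was 5 or less. Members and lists were chosen with earlier results of these data known, so no list was given a p. Alternatives were other pseudocounts, minima, scalings, transcripts, thresholds and groupings of KIF2A, KIF21A and KIF21B, the groups compared alone, the fit without trend, voom, the replicate number as a block and each library left out. KIFBP of the adaptor list was matched as KIF1BP. Counting intervals and floors cover counting error only.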

Additional observations from a re-analysis of the deposited data

Results flagged for a closer look

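For 10 members the change against control differed between the deletions by the direct test (limma, Benjamini-Hochberg adjusted p over 13790 genes), each with the lower level in ΔE2. In this comparison the median of all genes was −0.11, and these were 10 of 32 tested members, against 26.0% of all genes tested. They were KIF1C (log2 difference −0.94, adjusted p = 0.000684), KIFC2 (−0.71, 0.00195), KIF1BP (−0.64, 0.000842), KIF7 (−0.64, 0.00921), KIF20B (−0.51, 0.0131), KIF21A (−0.49, 0.0372), KIF5B (−0.46, 0.00192), KIF22 (−0.44, 0.00705), KIF13B (−0.36, 0.0194) and KIF1B (−0.30, 0.0451). For all 10 the 3 ΔE2 clones lay below all 3 ΔSE12313-b clones. That follows in part from choosing them by a test on the same clones, and is no further support. KIF11, KIF15 and KIF26A, outside the 10, lay below in the same way, and KIF16B lay above. The share of all genes without overlap was not counted.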

How the results depend on the processing

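Of the mitotic kinesins 13 rose in each deletion under all alternatives run, except for 12 in ΔE2 with a pseudocount of 1. Of their partners 14 rose in ΔE2, except for 16 at 1.5-fold, while in ΔSE12313-b between 14 (the 3 other scalings or references) and 17 (at 1.5-fold) rose. Centring each library moved the split of all genes from 1544 up and 1153 down to 1170 and 1464 in ΔE2 and from 2032 and 1080 to 1201 and 1570 in ΔSE12313-b. The replicate numbers did not pair the libraries (correlations of same-numbered deviations −0.08 to 0.107), and with a replicate block the mitotic counts stayed at 13, the medians in ΔE2 and ΔSE12313-b were 0.06 and 0.55 for transport and 4.05 and 3.96 for mitotic kinesins. Causes of the differences below were not tested.

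With a pseudocount of 1 the mitotic medians were 3.25 in ΔE2 and 3.18 in ΔSE12313-b, 1 of the other kinesins rose and 0 fell in ΔE2, and in ΔSE12313-b 0 transport kinesins rose and 0 of the other kinesins fell. The minimum was also lowered to an FPKM above 0 in at least 2 libraries. With it, 2 of the other kinesins fell in ΔE2, the transport median in ΔSE12313-b was 0.27, and the deletions differed in 1 member each way. With a mean FPKM of at least 1, 0 of the other kinesins fell in either deletion, since KIF27 was then not tested. With the longest transcript 0 transport kinesins rose in ΔSE12313-b.

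With centring, quantile normalization and the chromosome median as reference, in this order, the transport median in ΔE2 was −0.13, −0.12 and −0.11 and in ΔSE12313-b 0.27, 0.17 and 0.19. Under each of them, 0 transport kinesins rose and 1 fell in ΔSE12313-b. The mitotic median there was 3.76 with centring and 3.60 against the chromosome. Each of the 3 left 1 cargo adaptor up and 1 dynein or dynactin gene down in ΔSE12313-b and 0 of the latter up in ΔE2, and left 2, 2 and 1 of them up in ΔSE12313-b. Quantile normalization gave 2 cargo adaptors down in ΔE2. Relative to the chromosome, ΔE2 against ΔSE12313-b was 0.00 for KIF20B and 0.06 for KIF5B.

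At 1.5-fold, 3 of 11 transport kinesins rose in ΔE2, and in ΔSE12313-b 5 rose and 1 fell. Of all 13790 genes tested, 3109 rose and 1945 fell in ΔE2 at this fold, and 4124 rose and 1678 fell in ΔSE12313-b. Between the deletions, 4 of 32 members were lower in ΔE2 than in ΔSE12313-b, against 1139 of all genes. Among 15 cargo adaptors, 2 rose and 2 fell in ΔE2 and 5 rose in ΔSE12313-b. For the 28 dynein and dynactin genes, 8 rose and 1 fell in ΔE2 and 10 rose and 1 fell in ΔSE12313-b.

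With each library left out in turn, transport kinesins up in ΔSE12313-b ranged from 1 to 2, members lower in ΔE2 than in ΔSE12313-b from 0 to 1 (KIF1C at −1.03 without ΔSE12313-b replicate 2), and the mitotic median in ΔSE12313-b from 3.83 to 4.41. An arm with 1 control left was assumed to vary like the other groups. Depth limits the members with few control reads, such as KIF4B and KIF18B.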
